A study of Mus musculus with 6 samples.

Results

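The genes described here are 10 genes of the integrated stress response that centre on the transcription factors ATF4 and CHOP: Atf4, Atf5, Ddit3, Trib3, Chac1, Asns, Sesn2, Nupr1, Cebpg and Gdf15. They were chosen by name, with earlier results of these data known. Each was matched to its Ensembl row through the GENCODE annotation of the mouse build GRCm38. All 10 were found among the 52550 gene rows of each library. The measurements came from cultured cardiomyocytes of mice at postnatal day 1, from 3 libraries labelled GR-cKO, with a cardiomyocyte-specific deletion of the glucocorticoid receptor, and 3 control libraries. In both groups the hearts were digested with enzymes and the cardiomyocytes were enriched by magnetic sorting. They grew with horse and fetal bovine serum for 48 hours and without serum for the next 24 hours. The labels give "ctrl" as the treatment of all 6 libraries, so genotype is the labelled difference. They name neither the Cre driver, the deleted exon and the alleles of the controls, nor whether animals were pooled. The libraries are called biological replicates with no further detail, so a p-value here reflects library-to-library spread that can be technical in part.

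The integrated stress response starts when kinases phosphorylate the initiation factor eIF2 in cells short of amino acids or haem, with unfolded protein in the endoplasmic reticulum (ER) or infected by viruses. General translation then falls, while the mRNA of Atf4 is translated better through its upstream open reading frames. The ATF4 protein, a factor of the basic leucine zipper (bZIP) class, induces genes for amino acid supply and further factors such as CHOP, the product of Ddit3, which is linked to cell death. In heart muscle the pathway is known for its response to mitochondrial dysfunction and for release of the circulating factor GDF15. RNA counts do not show translation or protein, which is the main step at which ATF4 is controlled.

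RNA was counted near the 3' end of each transcript (QuantSeq). The libraries held 19371508 to 22583596 gene counts. The targeted gene Nr3c1, which encodes the glucocorticoid receptor, stood at 46.2, 42.8 and 44.1 CPM in GR-cKO and 68.2, 73.9 and 72.4 CPM in control. Levels are in CPM, counts normalised to the library total with TMM factors that correct for RNA composition. As the deleted exon is not known here, reads at the 3' end may lie beyond it, and these counts are no measure of intact receptor mRNA. Of 14386 genes tested, 2132 (14.8%) passed an adjusted p of 0.05 in edgeR's quasi-likelihood test, 1097 (7.63%) higher and 1035 (7.19%) lower in GR-cKO. Scaled by the ERCC spike-in RNAs, 1355 were higher and 522 lower, so the balance of calls depended on the scaling. The groups also differed in sex-linked RNA, with 0, 2 and 0 counts of Xist in GR-cKO and 6103, 5794 and 5507 in control. The Y-linked gene Ddx3y had 86.4 to 94.7 CPM in GR-cKO and 18.3 to 21.3 CPM in control. Each control library thus held both Xist and Ddx3y RNA, as a mix of female and male cells would. The GR-cKO libraries held Ddx3y RNA with almost no Xist. The part of this difference in the results below was not tested, and sex and genotype cannot be told apart in these libraries. All 10 genes lie on autosomes.

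Of the 10 ATF4-CHOP genes 9 rose in GR-cKO and none fell, against a background of 7.63% of all tested genes that rose. These genes and the lists below were chosen with earlier results of these data known, so such shares are a description without a test. The median log2 fold change of the 10 genes was 0.55, GR-cKO over control, beside -0.01 over all genes tested. The increases ran from 0.30 for Atf4 to 2.15 for Trib3 on the log2 scale, and Cebpg alone did not pass. In 7 of the 10 genes every GR-cKO library lay above every control library, a pattern seen in this direction in 15.2% of all tested genes. Of the 10, 3 (Trib3, Gdf15 and Nupr1) rose with a log2 fold change of at least 1, against 1.89% of all tested genes. All 10 passed the filter on low counts, and the lowest count of any of them in a library was 164. The summed level of the 10 genes was 730.6 to 866.6 CPM in GR-cKO and 525.4 to 622 CPM in control. Atf4 and Atf5 made up most of this sum, at means of 284.5 and 181 CPM in GR-cKO and 230.6 and 135.4 CPM in control. With ERCC scaling 9 again rose, with a median of 0.65. Without GR-cKO replicate 2 only 6 passed, and Atf4, Atf5 and Sesn2 were the ones lost. In RNA from a mixed culture, fewer cells of a type and less RNA per cell cannot be told apart.

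**Figure D1:**
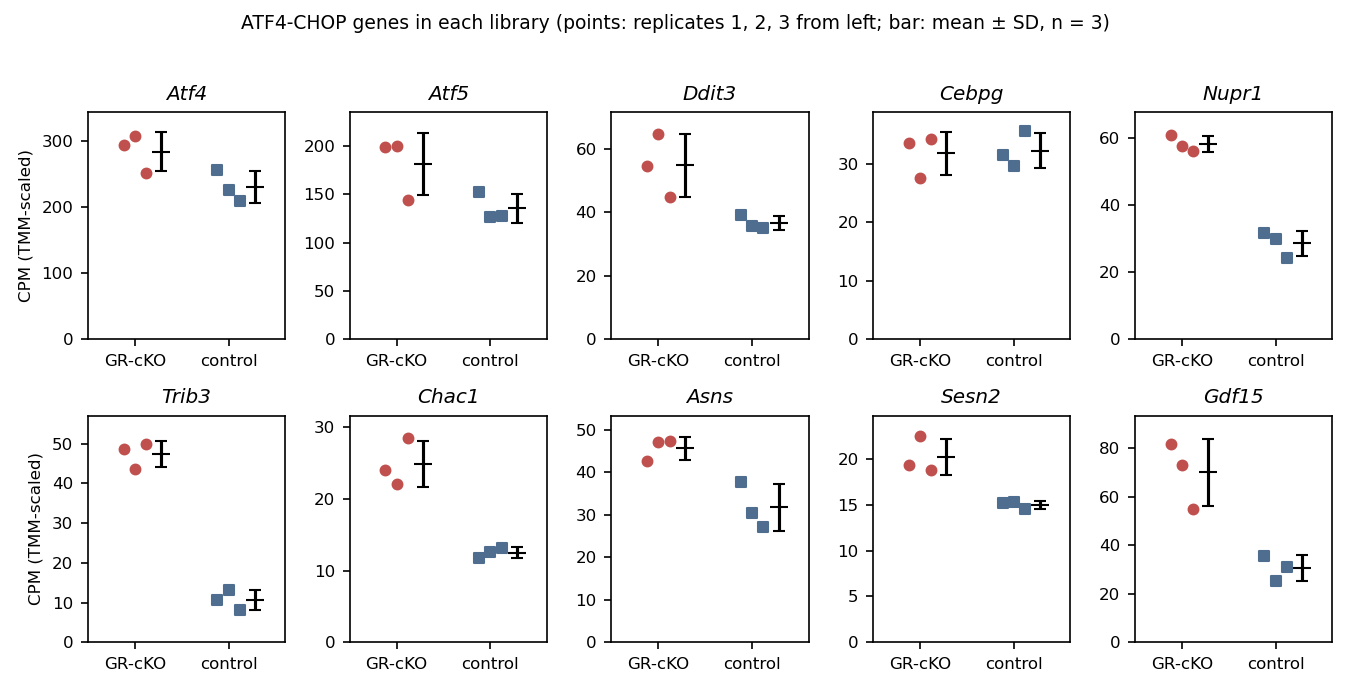
Level of each of the 10 genes in CPM, on linear axes from 0, in the 3 GR-cKO and 3 control libraries (points) with mean and SD (bar, n = 3 each). Trib3, Gdf15, Nupr1 and Chac1 show the widest gaps between the groups, and the Cebpg points of the groups lie in the same range.

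Among the regulators, Atf4 itself changed least of those that passed. It is the factor from which the programme takes its name (GRCm38 chromosome 15, 80255184 to 80257541, plus strand). It had 294.1, 307.6 and 251.9 CPM in GR-cKO and 256, 226.7 and 209.2 CPM in control. GR-cKO replicate 3 lay just below control replicate 1, so the groups overlapped. The log2 fold change was 0.30 ± 0.08 (standard error SE; edgeR, adjusted p = 0.0121). The call did not hold without GR-cKO replicate 1 (0.28, adjusted p = 0.0554), GR-cKO replicate 2 (0.25, adjusted p = 0.103), control replicate 2 (0.29, adjusted p = 0.0607) or control replicate 3 (0.24, adjusted p = 0.0893), all by edgeR.

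Atf5, a related bZIP factor that is also controlled by upstream open reading frames and is known for the mitochondrial unfolded protein response, behaved in a similar way (chromosome 7, 44812256 to 44816658, minus strand). Its level was 198.9, 200.3 and 143.8 CPM in GR-cKO and 152.4, 126.4 and 127.4 CPM in control. GR-cKO replicates 1 and 2 stood above all controls, and GR-cKO replicate 3 fell within the control range. The log2 fold change was 0.42 ± 0.10 (edgeR, adjusted p = 0.00511), and without GR-cKO replicate 2 it was 0.34 with an adjusted p of 0.0564. Its locus shares exon sequence with Nup62 and Il4i1 on the opposite strand, away from the last 500 bases of Atf5. Nup62 stood at 58.5 ± 0.568 CPM in GR-cKO and 52.7 ± 3.82 CPM in control (SD, n = 3 each), and Il4i1 was too scarce to be tested.

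Ddit3, which encodes CHOP, rose (chromosome 10, 127290774 to 127296288, plus strand). It had 54.8, 64.9 and 44.9 CPM in GR-cKO and 39.3, 35.8 and 35 CPM in control. All GR-cKO libraries were above all controls, with the narrowest gap again at GR-cKO replicate 3. Ddit3 had a log2 fold change of 0.58 ± 0.11 (edgeR, adjusted p = 0.000703). The last 500 bases of Ddit3 overlap an exon of Mars, the methionyl-tRNA synthetase gene on the opposite strand. The strand setting of the counting is not given in the sources used here, so reads of the pair may not have been told apart and the Ddit3 level is uncertain. Mars, itself one of the synthetase genes that ATF4 can induce, stood at 66.3 ± 4.44 CPM in GR-cKO and 58.4 ± 3.77 CPM in control and did not pass (log2 fold change 0.18 ± 0.09, edgeR, adjusted p = 0.193).

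Cebpg, a C/EBP factor that pairs with ATF4 on its target sites, did not pass (chromosome 7, 35046422 to 35056573, minus strand). It had 33.6, 27.5 and 34.3 CPM in GR-cKO and 31.6, 29.7 and 35.6 CPM in control, so the groups covered the same range. The log2 fold change was -0.02 ± 0.11 (edgeR, adjusted p = 0.937). Its sign turned with ERCC scaling (0.07), without GR-cKO replicate 2 (0.07) and without control replicate 3 (0.05).

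Nupr1, a small chromatin-associated stress protein, rose (chromosome 7, 126623249 to 126630861, minus strand). Its level was 61, 57.7 and 56.2 CPM in GR-cKO and 31.6, 29.8 and 24.3 CPM in control. The lowest GR-cKO library stood well above the highest control. The fold change was 2.04-fold, or 1.03 ± 0.11 on the log2 scale (edgeR, adjusted p = 1.45e-07).

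Of the 10 genes, Trib3 had the largest log2 fold change. It encodes a pseudokinase that is induced by ATF4 and CHOP and restrains both ATF4 and the kinase AKT (chromosome 2, 152337422 to 152344032, minus strand). Trib3 had 48.6, 43.6 and 49.9 CPM in GR-cKO and 10.7, 13.1 and 8.1 CPM in control. Each GR-cKO library held more than any control, and GR-cKO replicate 3 was the highest. The increase was 4.45-fold, a log2 fold change of 2.15 ± 0.14 (edgeR, adjusted p = 6.97e-11), and 0.549% of all tested genes had a larger log2 fold change.

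Chac1, an enzyme that degrades glutathione, also rose (chromosome 2, 119351229 to 119354381, plus strand). It had 24.1, 22.2 and 28.5 CPM in GR-cKO and 11.7, 12.7 and 13.2 CPM in control, without overlap. Chac1 had a log2 fold change of 0.99 ± 0.14 (edgeR, adjusted p = 1.12e-05). As for Trib3, the highest library was GR-cKO replicate 3, the library with the lowest levels of Atf4, Atf5 and Ddit3 among the GR-cKO libraries.

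Asns, the asparagine synthetase that makes asparagine from aspartate and glutamine, rose less (chromosome 6, 7675169 to 7693254, minus strand). Its level was 42.6, 47 and 47.3 CPM in GR-cKO and 37.6, 30.5 and 27 CPM in control. The groups did not overlap, and control replicate 1 came closest to the GR-cKO libraries. Asns had a log2 fold change of 0.52 ± 0.11 (edgeR, adjusted p = 0.00199).

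Sesn2 encodes sestrin 2, a leucine sensor that inhibits the growth kinase complex mTORC1 (chromosome 4, 132492032 to 132510501, minus strand). It had 19.3, 22.5 and 18.8 CPM in GR-cKO and 15.2, 15.3 and 14.5 CPM in control. The groups did not overlap, but the gap between them was small. The log2 fold change of 0.43 ± 0.13 passed narrowly (edgeR, adjusted p = 0.0314). The call did not hold without GR-cKO replicate 1 (0.47, adjusted p = 0.0566), GR-cKO replicate 2 (0.35, adjusted p = 0.173), control replicate 1 (0.44, adjusted p = 0.0652), control replicate 2 (0.45, adjusted p = 0.0768) or control replicate 3 (0.41, adjusted p = 0.0798) in edgeR, nor in DESeq2 (0.43, adjusted p = 0.0556).

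Gdf15 encodes a secreted member of the TGF-beta family that signals to the brainstem (chromosome 8, 70629393 to 70632456, minus strand). It had 81.8, 73.3 and 55.1 CPM in GR-cKO and 35.8, 25.2 and 31.2 CPM in control. All GR-cKO libraries were above all controls, and replicate 3 was the lowest of the GR-cKO group, as it was for Atf4, Atf5, Ddit3, Sesn2 and Nupr1. The increase was 2.28-fold, a log2 fold change of 1.19 ± 0.13 (edgeR, adjusted p = 3.72e-07).

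**Figure D2:**
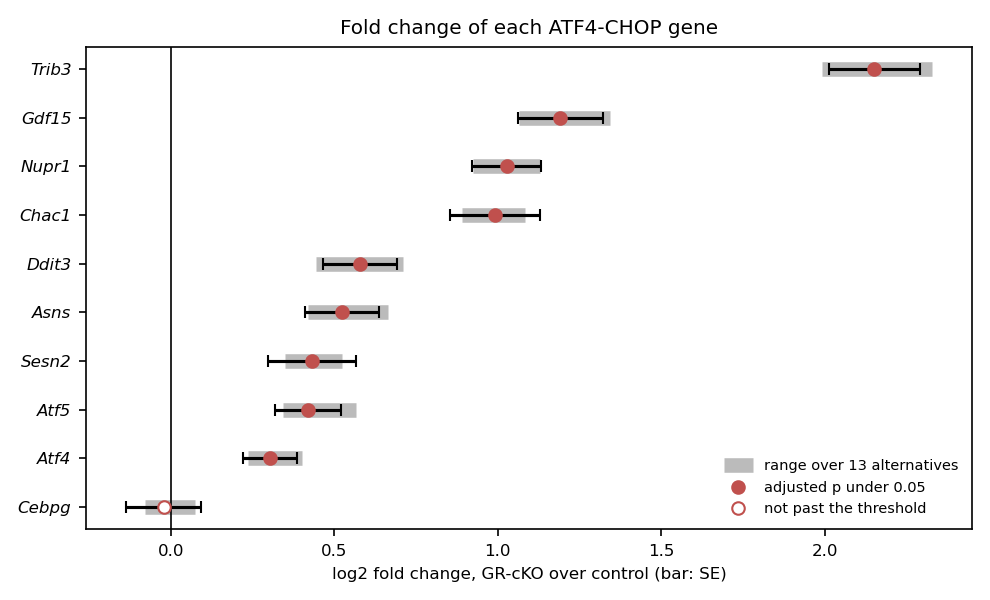
Log2 fold change of each gene, GR-cKO over control (points, with SE), ordered by size, and the range over the 13 alternative analyses (grey). The range of Trib3 runs from 1.99 to 2.33, that of Gdf15 from 1.07 to 1.34, and that of Cebpg spans 0.

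The libraries of a group did not differ in one direction over all 10 genes. GR-cKO replicate 3 was the lowest of its group in 6 of the genes and the highest in 4, Trib3, Chac1, Asns and Cebpg. Control replicate 1 was the highest of its group in 6 genes and control replicate 3 the lowest in 6.

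ATF4 binds paired with C/EBP factors to a composite site, the C/EBP-ATF response element, whose core can be written TGATGNAA. The promoters are shown because ATF4 is known to act on several of these genes through this motif. RefSeq windows on GRCm38.p6, from 250 bases before to 50 bases after each annotated start, were available for 10 of the 10 genes, with a second start for Atf5 and for Gdf15. TGATGNAA and a variant with a C, TGACGNAA, were searched on both strands. Their reverse complements are TTNCATCA and TTNCGTCA, and a stretch of 8 letters cannot match both motifs. TGATGNAA was found for 4 of the 10 genes (Trib3, Chac1, Asns and Nupr1). These are 4 of the 12 windows of the 10 genes, beside 3.97% of all 32851 windows. TGACGNAA was found for 1 of the 10 genes (Chac1), or 1 of the 12 windows, beside 1.59% of all windows. A match describes the letters only and is not a binding site. For the other 6 genes these letters were not in the window. In the sequences below, read 5' to 3' on the strand of the gene, capitals mark the matches. The Chac1, Asns and Nupr1 sequences are the 250 bases before the start (chr2:119350992-119351241, plus strand; chr6:7693210-7693459, minus strand; chr7:126625471-126625720, minus strand). The Trib3 sequence is a stretch of 30 bases around a match that begins at base 15 counted from the start as 1 (chr2:152344028-152344057, minus strand). All starts here are RefSeq starts, which differ from the ends of the GENCODE gene spans given above. By those spans the Trib3 match lies before the gene, while the Asns match and the Nupr1 stretch lie within their genes.
Chac1: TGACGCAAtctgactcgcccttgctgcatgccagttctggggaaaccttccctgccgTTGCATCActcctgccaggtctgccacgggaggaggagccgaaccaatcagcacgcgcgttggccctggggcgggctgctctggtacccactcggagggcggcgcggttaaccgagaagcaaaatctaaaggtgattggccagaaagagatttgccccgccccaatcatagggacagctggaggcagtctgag
Asns: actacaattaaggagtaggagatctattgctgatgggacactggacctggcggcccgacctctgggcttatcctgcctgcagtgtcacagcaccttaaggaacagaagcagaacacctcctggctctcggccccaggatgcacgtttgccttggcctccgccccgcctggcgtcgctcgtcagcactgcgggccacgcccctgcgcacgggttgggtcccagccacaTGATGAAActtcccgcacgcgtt
Nupr1: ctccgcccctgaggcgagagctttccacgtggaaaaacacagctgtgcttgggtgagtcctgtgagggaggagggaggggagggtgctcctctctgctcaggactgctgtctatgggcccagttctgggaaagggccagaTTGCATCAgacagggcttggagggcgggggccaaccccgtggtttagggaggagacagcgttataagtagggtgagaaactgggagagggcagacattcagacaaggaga
Trib3: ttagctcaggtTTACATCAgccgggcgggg
In Chac1 the variant TGACGCAA begins 250 bases before the start and TTGCATCA, a reverse match of TGATGNAA, 193 bases before it. Nupr1 holds the same TTGCATCA, 110 bases before its start. Asns holds TGATGAAA 23 bases before its start, and Trib3 holds the reverse match TTACATCA. These 4 genes had log2 fold changes of 2.15 (Trib3), 1.03 (Nupr1), 0.99 (Chac1) and 0.52 (Asns), while Gdf15, at 1.19, had no match in either of its windows.

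The genes whose pattern over the 6 libraries was most like the mean of the 10 genes were picked from 10386 other tested genes whose mean reached 5 CPM in one group or the other. Likeness was the root mean square distance between mean-centred log2 CPM. The closest was Vldlr, a lipoprotein receptor gene, at a distance of 0.037, with 113 ± 3.31 CPM in GR-cKO and 64.7 ± 3.12 CPM in control (SD, n = 3 each). It was followed by the glycolytic enzyme gene Gpi1 (0.042), the early response gene Ier3 (0.050), the glycolytic enzyme gene Aldoa (0.053) and Plod1, a collagen lysyl hydroxylase gene (0.053). The mean pattern was mainly the difference between the groups, so this distance picked genes with log2 fold changes of like size. They were 0.80 (Vldlr), 0.72 (Gpi1), 0.72 (Ier3), 0.81 (Aldoa) and 0.83 (Plod1). Vldlr is also in the list of other targets of ATF4 and CHOP below. The likeness is a description without a test.

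The genes that act upstream of ATF4 were called at shares near the background. Of 19 genes for eIF2 kinases and their regulators, eIF2 and eIF2B subunits and eIF2 phosphatase subunits, 1 rose and 1 fell (5.26% each, against 7.63% and 7.19% of all tested genes), with a median log2 fold change of -0.03. The one that rose was Ppp1r15a (GADD34), the inducible subunit that directs phosphatase to eIF2 and closes the feedback loop. It had 56, 55.7 and 53.2 CPM in GR-cKO and 35.3, 34.4 and 33.5 CPM in control, without overlap, a log2 fold change of 0.68 ± 0.09 (edgeR, adjusted p = 9.38e-06). The kinase genes Eif2ak1 (HRI), Eif2ak2 (PKR), Eif2ak3 (PERK) and Eif2ak4 (GCN2) had log2 fold changes between -0.24 and 0.16, none past the threshold, and are named because they start the response. The X-linked subunit gene Eif2s3x, at 13.8, 13.4 and 24.3 CPM in GR-cKO and 21.7, 27.6 and 26.9 CPM in control, fell by 0.56 ± 0.17 on the log2 scale (edgeR, adjusted p = 0.0298). Its call did not hold with ERCC scaling (adjusted p = 0.0867), in DESeq2 (0.0671) or without GR-cKO replicate 1 (0.175), GR-cKO replicate 2 (0.185), control replicate 2 (0.116) or control replicate 3 (0.0933), given as adjusted p. Without control replicate 1, 2 genes of this list rose and 2 fell. Eif2s3y, the Y-linked counterpart of Eif2s3x, was not in this list. It stood at 16.6 ± 3.93 CPM in GR-cKO and 2.54 ± 0.411 CPM in control (SD, n = 3 each). Its log2 fold change was 2.70 ± 0.22 (edgeR, adjusted p = 3.56e-09), so the fall of Eif2s3x alone does not describe the RNA of this subunit. The sex-linked RNA of the groups differed as given above, and its part in the values of Eif2s3x and Eif2s3y was not tested.

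Of 17 genes for bZIP partners and other C/EBP and ATF factors 3 rose and none fell, with a median of 0.22. The share that rose was 17.6%, against 7.63% of all tested genes. Atf3, an ATF4 target that is itself a repressor, had 19.7, 19.5 and 22.3 CPM in GR-cKO and 7.48, 7.03 and 6.77 CPM in control, a log2 fold change of 1.53 ± 0.15 (edgeR, adjusted p = 9.91e-08). The AP-1 subunit genes Junb (0.43 ± 0.10) and Jun (0.31 ± 0.08) also rose. The Jun call did not hold without GR-cKO replicate 1 (0.26, edgeR, adjusted p = 0.0633). With ERCC scaling 6 of the 17 rose.

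Genes for amino acid uptake were among those that rose. Of 13 transporter genes 7 rose and none fell (53.8%, against 7.63% of all tested genes), with a median log2 fold change of 0.52. Slc7a5, the large neutral amino acid exchanger LAT1, had 56, 47.1 and 41.9 CPM in GR-cKO and 17.6, 17.1 and 19 CPM in control, a log2 fold change of 1.43 ± 0.12 (edgeR, adjusted p = 3.87e-09). Its heavy chain partner Slc3a2 rose by 0.52 ± 0.07 and the glutamine transporter Slc38a2 by 0.67 ± 0.06 on the log2 scale. The glycine transporter Slc6a9 rose by 0.83 ± 0.16. The other 3 that rose, named after their values were seen, were Slc1a4, Slc7a3 and the cystine transporter Slc7a11. Slc7a3 lies on chromosome X, and 6 transporter genes rose when genes of X and Y were left out. The part of the sex-linked difference in its level was not tested.

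Of 19 genes of amino acid, serine and one-carbon synthesis 6 rose and 1 fell, with a median of 0.25. These are 31.6% and 5.26%, against 7.63% and 7.19% of all tested genes. Mthfd1l and Shmt2, which act in mitochondrial one-carbon metabolism, rose by 0.76 ± 0.11 and 0.58 ± 0.10 on the log2 scale. Mthfd2 of the same pathway, named after its values were seen, did not pass (0.25 ± 0.08, edgeR, adjusted p = 0.0533). The gluconeogenic enzyme Pck2 rose by 0.52 ± 0.09 and glutamine synthetase, Glul, by 0.34 ± 0.08. The best-known ATF4 targets of serine synthesis, Phgdh (0.08 ± 0.15), Psat1 (-0.17 ± 0.08) and Psph (0.10 ± 0.15), did not pass. The gene that fell was the cytosolic Mthfd1, named after its values were seen, at 21.9 ± 1.61 CPM in GR-cKO and 28.3 ± 0.599 CPM in control (SD, n = 3 each, log2 fold change -0.37 ± 0.12). Its call did not hold with ERCC scaling (edgeR, adjusted p = 0.175), in DESeq2 (0.0534), or without GR-cKO replicate 1 (0.144), GR-cKO replicate 2 (0.0754), control replicate 1 (0.0653), control replicate 2 (0.108) or control replicate 3 (0.0522), given as adjusted p.

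Of 20 cytosolic tRNA synthetase genes 3 rose and none fell, with a median of 0.05. The 3 are 15% of the list, and 14.8% of all tested genes passed in either direction and 7.63% upward. Sars, for serine, rose by 0.42 ± 0.07 on the log2 scale (edgeR, adjusted p = 0.000205), with 138.4, 136 and 138.1 CPM in GR-cKO and 108.5, 98.9 and 101 CPM in control. Yars, for tyrosine, and Lars, for leucine, had log2 fold changes of 0.33 ± 0.09 and 0.24 ± 0.08. The Yars call did not hold without GR-cKO replicate 2 (0.28, edgeR, adjusted p = 0.104) or control replicate 2 (0.34, adjusted p = 0.0506). The Lars call did not hold without GR-cKO replicate 1 (0.20, edgeR, adjusted p = 0.161), GR-cKO replicate 3 (0.22, adjusted p = 0.089), control replicate 1 (0.19, adjusted p = 0.156) or control replicate 2 (0.25, adjusted p = 0.0878). Without control replicate 2 only 1 gene of this list passed.

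Of 16 other targets of ATF4 and CHOP that were tested 9 rose and none fell, with a median of 0.32. The share that rose was 56.2%, against 7.63% of all tested genes. Stc2, a secreted glycoprotein, had 9.8, 11.2 and 11.9 CPM in GR-cKO and 0.815, 2.72 and 1.78 CPM in control, a log2 fold change of 2.63 ± 0.29 (edgeR, adjusted p = 5.61e-07). Ero1l, the oxidase that drives disulphide formation in the ER, had 72.3, 68.1 and 60.6 CPM in GR-cKO and 19.9, 20.9 and 20.6 CPM in control, a log2 fold change of 1.71 ± 0.10. Vegfa rose by 1.10 ± 0.08 and Vldlr by 0.80 ± 0.08 on the log2 scale. Stc2, Ero1l, Vegfa and Vldlr are also known to be induced by hypoxia. Fgf21 and Adm2 were too scarce to be tested.

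The ER chaperone genes went the other way. In the list of ER chaperones and of the ATF6 and XBP1 arms of the unfolded protein response, 14 of 21 genes fell and none rose, against 7.19% of all tested genes that fell. The median log2 fold change was -0.38, and the summed level was 3549 to 3685 CPM in GR-cKO and 5003 to 5166 CPM in control. Calr, a calcium-binding chaperone, had 520, 531 and 493 CPM in GR-cKO and 941, 885 and 857 CPM in control, a log2 fold change of -0.80 ± 0.06 (edgeR, adjusted p = 1.55e-09). The HSP90 of the ER, Hsp90b1, fell by 0.64 ± 0.06, the secreted ER stress factor Manf by 0.67 ± 0.08 and the disulphide isomerase Pdia6 by 0.51 ± 0.07 on the log2 scale. Hspa5 (BiP), the main chaperone of the ER, stood at 976 ± 32.6 CPM in GR-cKO and 1331 ± 67.3 CPM in control (log2 fold change -0.45 ± 0.06, named as the standard marker). The signalling genes Atf6, Ern1 (IRE1) and Xbp1 had log2 fold changes of 0.13 ± 0.10, -0.18 ± 0.21 and -0.05 ± 0.08 and did not pass. With ERCC scaling 9 of the 21 fell and none rose.

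**Figure D3:**
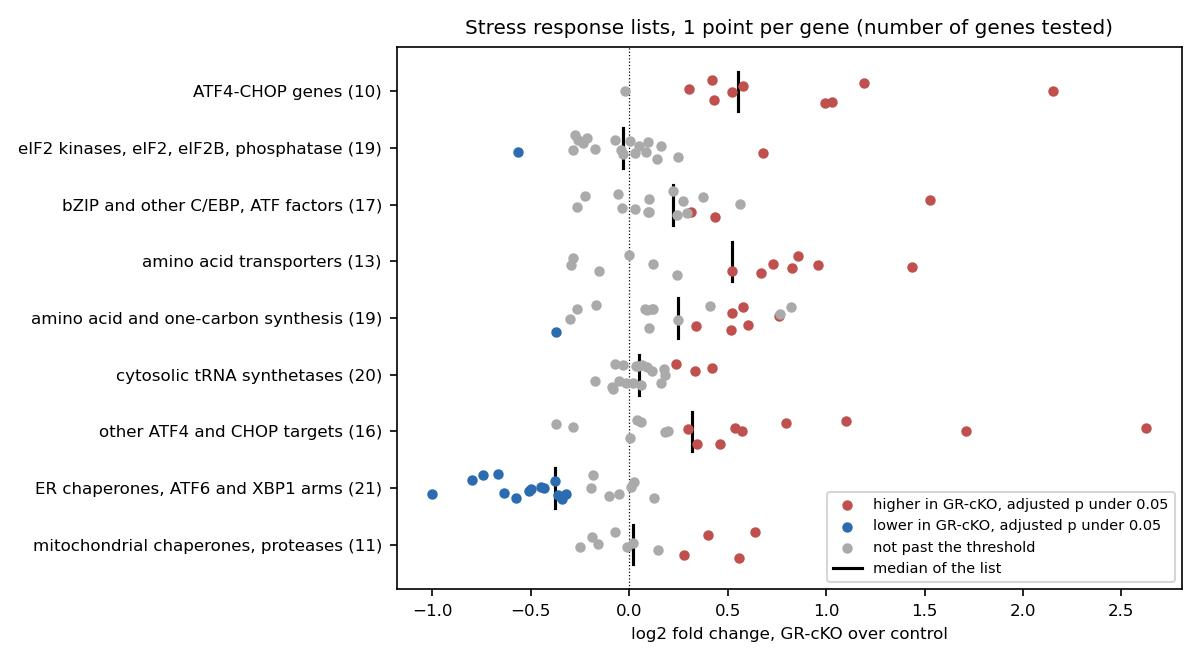
Log2 fold change, GR-cKO over control, of each tested gene in the ATF4-CHOP set and in 8 other lists (points, coloured by call, with the median of each list as a bar). Red points lie to the right for the ATF4-CHOP genes, the transporters and the other targets, and blue points to the left for the ER chaperones, whose median is -0.38.

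Among 11 chaperones and proteases of the mitochondrial stress response 4 rose and none fell, with a median of 0.02. The share that rose was 36.4%, against 7.63% of all tested genes. Lonp1, the matrix protease, had 156, 157 and 142 CPM in GR-cKO and 103, 94.6 and 94.2 CPM in control, a log2 fold change of 0.64 ± 0.08 (edgeR, adjusted p = 1.29e-06). The inner membrane protease Afg3l2 rose by 0.56 ± 0.10 and the matrix chaperone Hspa9 by 0.28 ± 0.06 on the log2 scale. Dnaja3 (0.40 ± 0.13, edgeR, adjusted p = 0.0434) lost its call without GR-cKO replicate 1 (0.43, adjusted p = 0.0705), GR-cKO replicate 3 (0.22, adjusted p = 0.305), control replicate 1 (0.36, adjusted p = 0.127) or control replicate 3 (0.36, adjusted p = 0.127), and in DESeq2 (0.40, adjusted p = 0.0913). The chaperonin genes Hspd1 (-0.16 ± 0.08) and Hspe1 (-0.07 ± 0.07) did not pass.

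**Figure D4:**
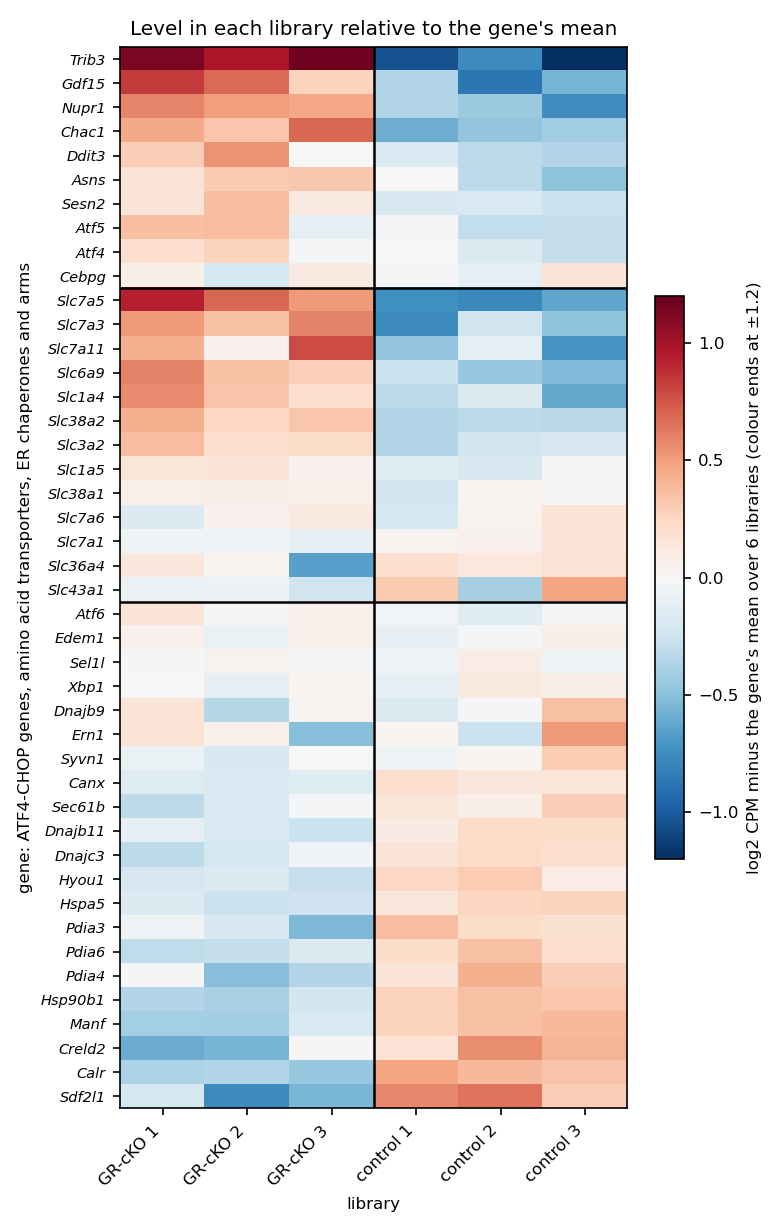
Level of each ATF4-CHOP gene, amino acid transporter gene and ER chaperone or arm gene in each library, as log2 CPM minus the mean of the gene over the 6 libraries (red above, blue below, colour ending at 1.2 on either side). Trib3 is red in all 3 GR-cKO libraries and blue in all 3 control libraries, and Calr, Hsp90b1, Manf, Pdia6 and Hspa5 in the lower block show the reverse, while Xbp1, Atf6 and Ern1 have both colours within a group.

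Markers of the labelled cell type and of other heart cells were present in both groups. The counts of markers below stand beside 7.63% of all tested genes that rose and 7.19% that fell. The cardiomyocyte markers summed to 35354 to 35982 CPM in GR-cKO and 28504 to 29804 CPM in control, and 8 of 12 rose and 1 fell. Fibroblast markers summed to 4778 to 4906 CPM in GR-cKO and 3660 to 3867 CPM in control, with 5 of 10 higher and 1 lower. Endothelial markers summed to 1170 to 1256 CPM in GR-cKO and 919 to 953.2 CPM in control, with 7 of 10 higher and 1 lower. Smooth muscle and pericyte markers summed to 4413 to 4636 CPM in GR-cKO and 3725 to 3837 CPM in control, with 5 of 8 higher and none lower. Most of this sum was Acta2, at a mean of 3835 CPM in GR-cKO and 3294 CPM in control. Leukocyte markers were scarce, at 36.9 to 59.3 CPM in GR-cKO and 14.9 to 19.1 CPM in control, with 3 of 7 tested markers higher. Most of this sum was Lyz2, at a mean of 40.6 CPM in GR-cKO and 12.9 CPM in control. No marker of the 5 lists was at 0 in all libraries. Without GR-cKO replicate 2, control replicate 2 or control replicate 3, 5 cardiomyocyte markers rose, and without control replicate 2, 2 of them and 2 fibroblast markers fell. Without GR-cKO replicate 1 or 3, 1 smooth muscle marker fell. In each of the 6 fits with 1 library left out, 5 endothelial markers rose rather than 7. Mitochondrially encoded RNA took 3.76% to 4% of gene counts in GR-cKO and 4.51% to 4.81% in control. The part of these differences in the levels of the ATF4-CHOP genes was not tested.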

How the data were processed

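Gene-level counts of 3' mRNA libraries (QuantSeq FWD, 100 ng of total RNA) were used from 3 GR-cKO and 3 control libraries, grouped by the labels. Raw, unnormalised counts per gene were deposited by the authors, with a table for each library. Reads were handled on build GRCm38 with STAR 2.5.4a and featureCounts 1.6.2, and cutadapt 1.16, FastQC 0.11.7, bcl2fastq, DESeq2 1.18.1 and MultiQC 1.5 are also listed, per the submitters' processing notes. The handling of strand and of reads mapping to several places is not given in the sources used here. Of 52550 Ensembl rows, 52403 had a symbol in GENCODE M21. Ddit3 has 2 identifiers there, of which 1 is in the tables. The 92 ERCC and 7 SIRV rows, 1.98% to 2.36% of counts, stayed out of library sizes and tests.

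Counts were tested with edgeR 4.0.16 (R 4.3.3): TMM factors (0.980 to 1.024), the default low-count filter, a quasi-likelihood F test of GR-cKO over control and Benjamini-Hochberg adjustment over 14386 genes, with a threshold of 0.05. The standard error is the log2 fold change divided by the root of F. Depth allowed a level of up to 0.133 to 0.155 CPM for a count of 0, taken as 3 counts, for counting error only. Replicate libraries differed beyond counting noise (median chi-square per gene 2.49 to 3.72), so none was treated as a library deposited again, which does not show that they are independent samples. Alternatives were DESeq2 1.42.0, its size factors, ERCC scaling, other filters, no X and Y genes, a replicate block and leaving out each library.

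The genes and lists were chosen with earlier results of these data known. Named genes were the 10 members and, per list, up to 4 past the threshold with the smallest p. Other named genes (the kinases, serine synthesis genes, Hspa5, the sensors, Hspd1, Hspe1 and Mthfd1 among them) were chosen after their values were seen. Promoter sequences are from RefSeq.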

Additional observations from a re-analysis of the deposited data

How the results depend on the processing

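The 9 increases among the ATF4-CHOP genes kept their direction under all 13 alternatives. Trib3, Chac1, Ddit3, Asns, Nupr1 and Gdf15 also kept their call under each, while Atf4, Atf5 and Sesn2 lost theirs as given above, and 6 to 9 of the 10 genes passed when 1 library was left out. Cebpg, never past the threshold, turned sign with ERCC scaling (0.072), without GR-cKO replicate 2 (0.073) and without control replicate 3 (0.053), and ranged from -0.079 to 0.073 with 1 library left out. Over all genes, 842 to 993 were higher and 726 to 889 lower with 1 library left out. ERCC scaling raised the median log2 fold change by 0.09. It gave 522 genes lower, 2 higher and none (0) lower in the eIF2 list, 6 higher among the bZIP factors, 0 lower in amino acid synthesis and among cardiomyocyte markers, and 9 ER genes lower. DESeq2 gave 0 lower in the eIF2 and the amino acid synthesis lists. Without chromosomes X and Y the eIF2 list had 0 lower, since Eif2s3x was not in the fit. The smooth muscle list had 1 gene lower without the low-count filter and with the replicate block. Deviations of same-numbered libraries from their group means had correlations near 0 (0.0006, 0.012 and 0.055). With 3 libraries per group this cannot show whether the numbers pair libraries. The replicate block gave 1201 genes higher and 1152 lower, and 9 members higher. With 1 library left out, 1 to 2 eIF2 genes were higher and 0 to 2 lower, 0 to 1 amino acid synthesis genes lower, 1 to 3 synthetases higher, 5 to 8 cardiomyocyte markers higher and 1 to 2 lower, 1 to 2 fibroblast markers lower and 0 to 1 smooth muscle markers lower. Endothelial markers that were higher numbered 5 in each of these 6 fits, against 7 in the main fit. Apart from the constructions named, the cause of these shifts was not tested. Of 390 count results under alternatives, 359 stayed within 1.5 times, which includes counts that were 0 in both fits.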
